A study of Mus musculus with 12 samples.

Results

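The 10 genes described here, H2-D1, H2-K1, B2m, Tap1, Tap2, Tapbp, Nlrc5, Psmb8, Psmb9 and Psmb10, build and load major histocompatibility complex (MHC) class I molecules. They were taken by symbol from a table of 23337 gene symbols, and all 10 were found. All 10 were among the 12406 genes with enough counts to be tested, although Nlrc5 passed that filter through its counts in 1 of the 3 experiments. The choice of these genes used none of their values in these libraries, but it was made with other results of the series known.

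MHC class I molecules show fragments of a cell's own proteins to CD8+ T cells, and natural killer cells respond to their absence. The proteasome cuts proteins into peptides, the TAP transporter carries them into the endoplasmic reticulum, and tapasin helps to load them onto a heavy chain paired with beta-2-microglobulin. The genes are transcribed at a low level in most epithelial cells and more strongly after interferon, when the factor NLRC5 acts on their promoters and 3 catalytic subunits of the proteasome are exchanged for those of the immunoproteasome.

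The cells were NU1, a mouse urothelial line that became immortal on its own during passaging. All 12 libraries came from this 1 line, grown with epidermal growth factor (EGF) at 5 ng/ml. Control cells, labelled as wild type, carried a non-targeting hairpin (shNT), and knockdown cells carried sh4, a lentiviral hairpin against Stag2, which encodes a subunit of the cohesin ring. Only 1 hairpin against Stag2 was sequenced. Each kind of cell was sampled while proliferating and when quiescent. Quiescent cells were labelled day 7 and had been kept, once confluent, in the same medium with rosiglitazone at 1 µM, an activator of PPAR gamma, and erlotinib at 0.5 µM, an inhibitor of the EGF receptor kinase. Each of the 4 groups held 3 libraries, from experiments that the labels number 5, 7 and 9 and also call batches 3, 1 and 2. The labels do not say how far cultures within an experiment were separate, so p-values measure the spread between these samples.

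Libraries held 14524429 to 21987539 counts. Stag2 averaged 132 ± 17.3 CPM (SD, n = 3; CPM are counts scaled to the library total) in proliferating control cells and 27.6 ± 4.95 in proliferating knockdown cells. In quiescent cells it averaged 120.5 ± 11.3 CPM with the control hairpin and 12.1 ± 2.94 with sh4, so each library matched its hairpin label. Of the urothelial markers, the keratins Krt8 and Krt18 were abundant in every library, but Trp63 had no count, Upk3a had 1 count in all, and Upk1a, Upk1b and Upk2 stayed at or below 3.94 CPM. The leukocyte gene Cd3e had no count and Ptprc reached at most 0.408 CPM. Summed over the 6 leukocyte markers in the table, however, the level was 15.6 to 33.3 CPM in proliferating control, 26.3 to 55.4 in proliferating knockdown, 39.7 to 61.9 in quiescent control and 110.2 to 169.7 in quiescent knockdown libraries. Most of that sum was Csf1r, the receptor of a macrophage growth factor. The part of this difference in the results below was not tested.

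Of the 10 genes, 7 lie on chromosome 17 in the mouse MHC or at its edge (GRCm38, GENCODE M21). Tap2 lies at chr17:34203527-34216321, Psmb8 at chr17:34197721-34201454, Tap1 at chr17:34187553-34197225 and Psmb9 at chr17:34181987-34187764, so the transporter and 2 of the immunoproteasome genes form a single cluster. H2-K1 lies at chr17:33996017-34000347, Tapbp at chr17:33915899-33929292 and H2-D1 at chr17:35262730-35267499. B2m lies apart, at chr2:122147686-122153083, as do Nlrc5 at chr8:94434356-94527272 and Psmb10 at chr8:105935735-105938444. Tap1 and Psmb9 overlap on opposite strands, and the strand setting of the counting is not given in the sources used here, so reads from the overlap could have been counted for either. The heavy chains also resemble other class I genes. Of the 50-base stretches in H2-D1 transcripts, 13.9% also occur in transcripts of other genes, mainly H2-Q1, H2-K1 and H2-Q7, and for H2-K1 the share is 6.87%. How far these shared stretches affect the counts of the 2 genes was not tested. Class I heavy chains vary between mouse strains, the strain behind NU1 is not given in the sources used here, and the effect of mismatches with the reference was not tested.

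Promoters are shown because the class I genes are known for a shared arrangement of binding sites, and because H2-K1, H2-D1 and B2m could be compared in it. RefSeq sequences (GRCm38.p6) from 250 bases before to 50 bases after the start were matched for 8 of the 10 genes, all but Nlrc5 and Tap2. The following 200 bases end at the base before the start and run 5′ to 3′ on the gene's strand. Capitals mark matches on either strand to GGGATTCCC (kappa B), AGTTTCA (interferon response), TGACG (X2) and ATTGG (Y), and none of these matches overlap.
H2-K1, chr17:34000348-34000547, minus strand: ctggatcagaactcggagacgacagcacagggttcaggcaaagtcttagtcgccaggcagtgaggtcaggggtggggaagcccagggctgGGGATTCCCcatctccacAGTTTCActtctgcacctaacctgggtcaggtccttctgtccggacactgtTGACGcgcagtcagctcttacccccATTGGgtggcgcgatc
H2-D1, chr17:35262894-35263093, plus strand: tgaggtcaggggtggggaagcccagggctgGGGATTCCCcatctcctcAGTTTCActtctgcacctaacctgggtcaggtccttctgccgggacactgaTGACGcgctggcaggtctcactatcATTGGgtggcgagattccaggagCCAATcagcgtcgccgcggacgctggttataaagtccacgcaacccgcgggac
B2m, chr2:122147487-122147686, plus strand: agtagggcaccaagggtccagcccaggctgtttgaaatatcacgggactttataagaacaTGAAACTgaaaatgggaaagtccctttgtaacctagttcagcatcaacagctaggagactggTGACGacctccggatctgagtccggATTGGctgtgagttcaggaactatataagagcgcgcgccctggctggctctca
Tap1, chr17:34187356-34187555, plus strand: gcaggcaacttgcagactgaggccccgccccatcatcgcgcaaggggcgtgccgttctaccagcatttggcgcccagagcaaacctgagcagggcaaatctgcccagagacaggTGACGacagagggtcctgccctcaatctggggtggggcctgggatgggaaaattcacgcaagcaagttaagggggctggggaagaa

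H2-K1 and H2-D1 held all 4 motifs in the same order and on the gene's own strand. In H2-K1 the first bases of kappa B, interferon, X2 and Y lay 110, 92, 41 and 16 bases before the start, and in H2-D1 they lay 170, 152, 101 and 76 bases before it. B2m, which is on another chromosome, held X2 and Y at 78 and 53 bases before its start and the interferon motif at 140 bases on the opposite strand. In all 3 genes exactly 20 bases separated X2 from Y. Among 32851 mouse promoters of the same length, kappa B was found in 0.353%, the interferon motif in 3.91%, X2 in 20.8% and Y in 37.4%. X2 and Y with that spacing were found in 31 promoters (0.0944%), belonging to 27 genes, and the nonclassical class I gene H2-M3 was also among them. The motifs and the spacing were picked after the sequences had been read, so these shares are a description. The region between Tap1 and Psmb9, whose RefSeq starts are at 34187556 and 34187330, serves both genes, and it held 1 X2 match and 1 Y match in another arrangement. Tapbp held only Y matches, and Psmb8 and Psmb10 held none of these letters in the window.

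**Figure D1:**
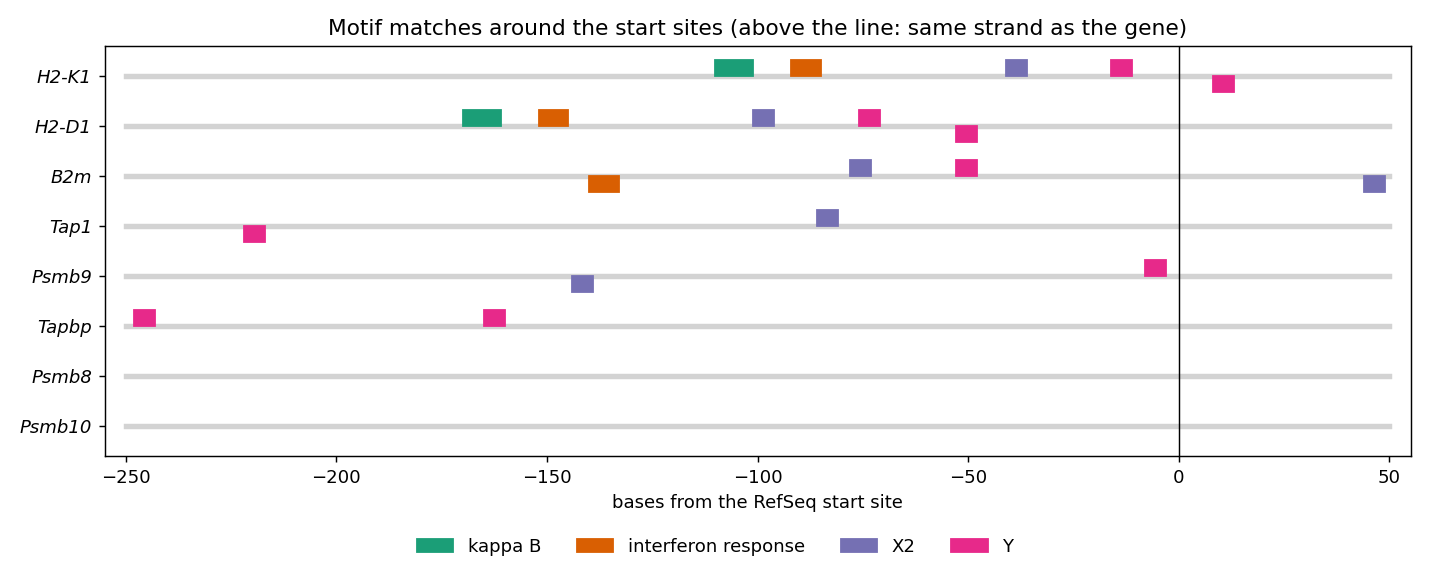
Matches to the kappa B, interferon, X2 and Y motifs from 250 bases before to 50 bases after the RefSeq start of 8 genes (x axis, bases from the start; boxes above a line are on the gene's strand, boxes below on the other). H2-K1, H2-D1 and B2m share X2 and Y with 20 bases between them.

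Divided by exon length, B2m was the most abundant of the 10, at a mean of 294 CPM per kilobase over the 12 libraries (range 139 to 631). H2-K1 followed at 174 (95.2 to 236) and H2-D1 at 140.2 (69.1 to 235), and these 3 ranges overlapped. Tapbp, which encodes tapasin, averaged 55.3 CPM per kilobase (18.4 to 93.8). Psmb10 at 9.59 and Tap1 at 6.89 formed a lower pair with overlapping ranges, and both lay below Tapbp in every library. Tap2 averaged 2.12 (1.06 to 3.81), Psmb8 1.47 (0.319 to 6.84) and Psmb9 0.942 (0.339 to 2.64) CPM per kilobase. The ranges of these 3 genes overlapped, and the median of Psmb8 was 0.849. Nlrc5 was lowest, at 0.0526 (0 to 0.154), below every library of the other 9 genes. Fewer cells that transcribe a gene and less RNA per cell cannot be told apart in such bulk libraries.

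The 3 experiments stood apart in several of these genes. Experiment 5 was the highest of the 3 in all 4 groups for H2-D1, Tapbp and Psmb10, a pattern seen in 7.43% of all genes tested. Experiment 9 was the highest in all 4 groups for 1 of 10, Nlrc5, and for 7.51% of all genes, and since Nlrc5 passed the filter through experiment 9 nothing is read from it. Because libraries of 1 experiment deviated together across all genes, each comparison was also fitted with the experiment as a block, and blocked values are given where they change a call.

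**Figure D2:**
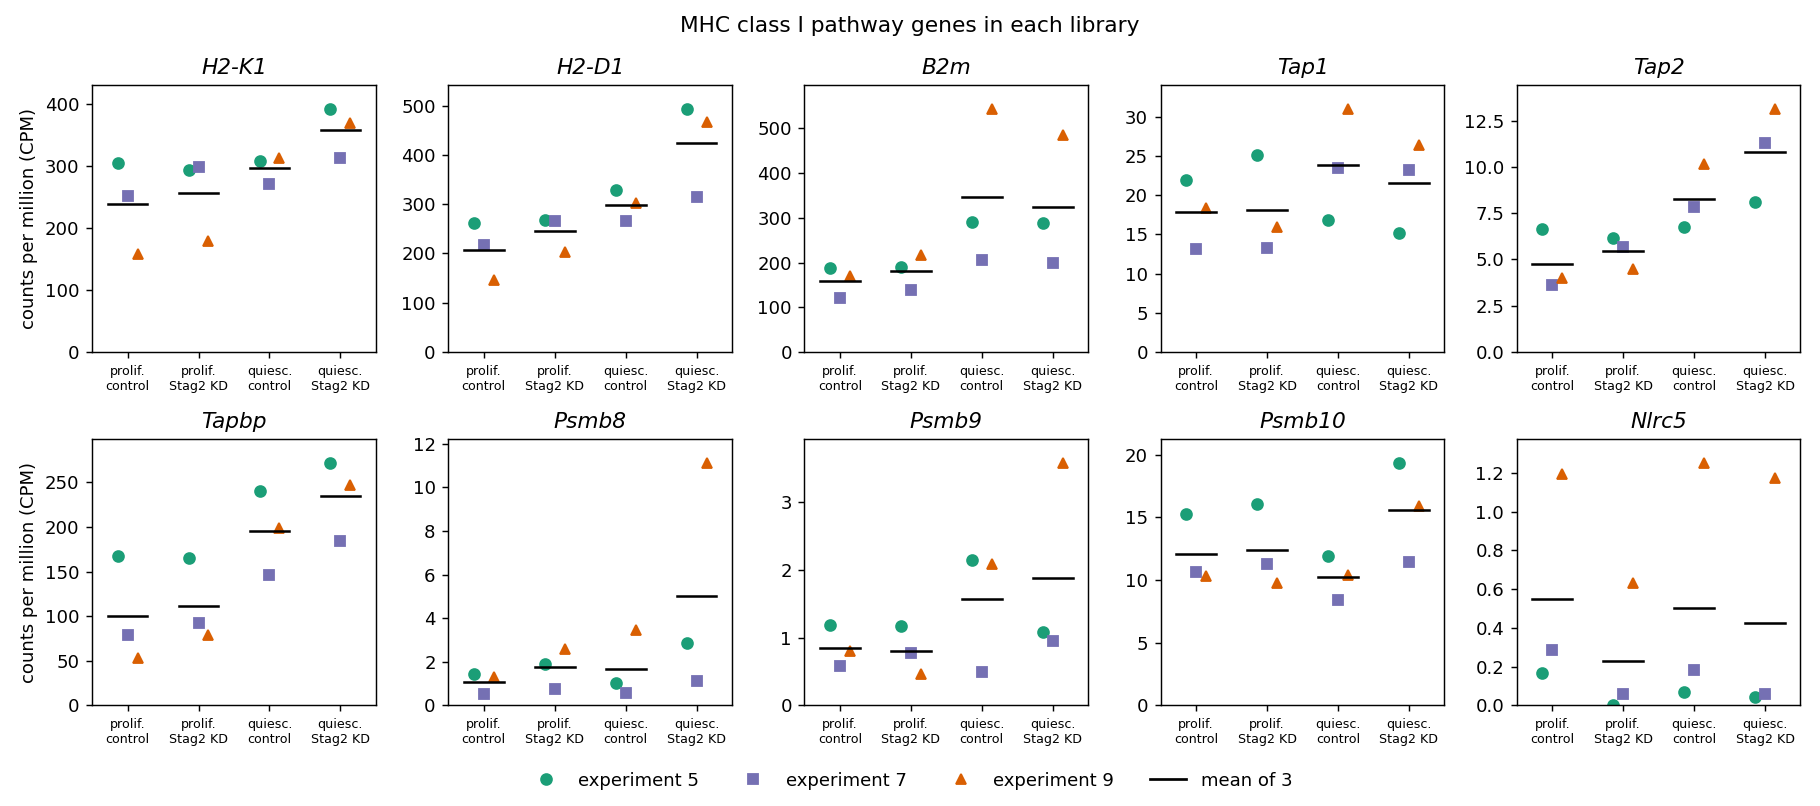
CPM (y axis, from 0) of each gene in each of the 12 libraries, by group (x axis), with the mean of 3 as a line and the experiment as colour and symbol. The group means of H2-D1, H2-K1, Tap2, Tapbp, Psmb8, Psmb9 and Psmb10 are highest in quiescent knockdown cells. Those of B2m and Tap1 are highest in quiescent control cells. Nlrc5 is highest in experiment 9 in all 4 groups.

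The first comparison asked how these genes differed between quiescent and proliferating cells. All quiescent cultures and no proliferating ones are labelled with rosiglitazone and erlotinib. The state, the drugs and the confluent culture therefore cannot be told apart, and quiescence here stands for all of them. In control cells 8 of 10 had positive log2 fold changes, with a median of 0.57, against a median of 0.00 and 50.4% positive over all 12406 genes tested. In knockdown cells all 10 were positive with a median of 0.83, against 0.00 and 50.5% over all genes. Those 10 include Nlrc5, which had few counts, at 0.83 ± 1.48 (SE). H2-D1, a classical heavy chain, and Tap2, a chain of the peptide transporter, rose in knockdown cells. With the experiment as a block, B2m, Tapbp and H2-D1 rose with quiescence in both kinds of cell.

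The counts behind those statements were as follows. In edgeR's quasi-likelihood test, 0 of 10 genes passed an adjusted p of 0.05 in control cells in either direction, while 8.33% of all genes passed as higher and 11.7% as lower in quiescence. At an unadjusted p under 0.05 the number was 4 of 10, beside 4314 of all 12406 genes. DESeq2 called 3 as higher, B2m, Tap2 and Tapbp, beside 1426 of all genes. With the block, edgeR called 3 as higher, H2-D1, B2m and Tapbp, and 0 as lower, against 16.8% and 18.5% of all genes. In knockdown cells edgeR called 2 of 10 as higher, H2-D1 and Tap2, and 0 as lower, against 7.59% and 10.8% of all genes. There, 4 of 10 had an unadjusted p under 0.05, beside 4089 of all 12406 genes. DESeq2 called 3 as higher in knockdown cells, H2-D1, Tap2 and Tapbp, beside 1350 of all genes. With the block edgeR called 5 as higher, adding B2m, Tapbp and Psmb8 to H2-D1 and Tap2. It called 0 as lower, and the shares of all genes were 15.9% and 17.2%. The sum of urothelial markers was also highest in quiescent knockdown libraries, at 16712 to 17094 CPM against 8319 to 14899 in the other 9. That sum is mostly Krt8 and Krt18. Other markers on the list fell with quiescence in knockdown cells: Epcam, Krt5 and Krt14 had log2 fold changes of -0.65, -1.45 and -2.86 (edgeR adjusted p = 0.0406, 0.0477 and 0.00371). Gata3 went the other way, at 0.99 in knockdown cells (edgeR adjusted p = 0.107, and 0.0412 with the block). In control cells Gata3 was at 1.47 (edgeR adjusted p = 0.0263). The leukocyte marker Csf1r also rose with quiescence in knockdown cells, by 1.81 ± 0.40 (edgeR adjusted p = 0.0110, and 0.0034 with the block). In control cells its log2 fold change was 1.02 (edgeR adjusted p = 0.0982). The part of these markers in the results was not tested.

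H2-D1 and H2-K1 encode the classical heavy chains, which hold the peptide. H2-D1 was measured at 262, 217 and 145 CPM in proliferating control cells of experiments 5, 7 and 9, and at 329.6, 266 and 302 CPM in quiescent control cells. With the knockdown it was measured at 267.1, 266.7 and 204 CPM in proliferating cells and at 493, 316 and 468 CPM in quiescent cells. All 3 quiescent libraries lay above all 3 proliferating ones with either hairpin, and experiment 7 gave the smallest gap in both. In knockdown cells the log2 fold change was 0.79 ± 0.23 (SE; 1.73-fold, edgeR adjusted p = 0.0338). In control cells it was 0.52 ± 0.23 (edgeR adjusted p = 0.125, and 0.0488 with the block). The call in knockdown cells did not hold in 8 of the 9 fits that left out an experiment or a library, and it held only without the quiescent knockdown library of experiment 7 (edgeR adjusted p from 0.0154 to 0.178 over the 9).

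H2-K1 was measured at 305, 251 and 158 CPM in proliferating control cells and at 308, 271 and 312 CPM in quiescent control cells. With the knockdown the values were 293, 297 and 179 CPM in proliferating and 391, 313 and 369 CPM in quiescent cells. Experiment 9 carried nearly all of the difference in control cells, where the within-experiment log2 differences were 0.01, 0.11 and 0.99. The groups overlapped in control cells and not in knockdown cells, but H2-K1 passed in neither, at a log2 fold change of 0.32 ± 0.24 in control cells (edgeR adjusted p = 0.374) and 0.48 ± 0.24 in knockdown cells (edgeR adjusted p = 0.189). Both heavy chain genes have the promoters with all 4 motifs printed above. Per length, the ratio of H2-D1 to H2-K1 was 0.677, 0.680 and 0.726 in proliferating control cells and 0.719, 0.706 and 0.897 in proliferating knockdown cells. It was 0.843, 0.775 and 0.761 in quiescent control cells and 0.992, 0.794 and 0.998 in quiescent knockdown cells. H2-D1 stayed below H2-K1 in all 12 libraries on this scale.

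B2m encodes beta-2-microglobulin, the small partner without which heavy chains are not held at the cell surface. It was measured at 189, 119.8 and 169.6 CPM in proliferating control cells of experiments 5, 7 and 9 and at 290.1, 205 and 543 CPM in quiescent control cells. With the knockdown it was measured at 189.5, 138 and 216 CPM in proliferating cells and at 288, 199 and 485 CPM in quiescent cells. The quiescent libraries of experiment 9 were the highest of all, and control groups did not overlap, whereas in knockdown cells the quiescent library of experiment 7 lay below the proliferating library of experiment 9. The log2 fold change with quiescence was 1.12 ± 0.38 in control cells (2.17-fold, edgeR adjusted p = 0.0606, and 0.0026 with the block). In knockdown cells it was 0.84 ± 0.38 (edgeR adjusted p = 0.150, and 0.0114 with the block). Per length, B2m was below the sum of H2-K1 and H2-D1 in experiments 5 and 7, at ratios of 0.522 to 0.984, and above it in experiment 9, at 1.20 to 1.90.

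Tap1 and Tap2 encode the chains of the transporter that brings peptides into the endoplasmic reticulum. Tap2 was measured at 6.62, 3.63 and 3.98 CPM in proliferating control cells and at 6.76, 7.83 and 10.1 CPM in quiescent control cells. With the knockdown it was measured at 6.18, 5.66 and 4.47 CPM in proliferating cells and at 8.11, 11.3 and 13.1 CPM in quiescent cells. Quiescent libraries lay above proliferating ones with either hairpin, by little in experiment 5. The log2 fold change was 0.99 ± 0.29 in knockdown cells (1.99-fold, edgeR adjusted p = 0.0348) and 0.80 ± 0.29 in control cells (edgeR adjusted p = 0.0737). The call in knockdown cells held in 2 of the 9 fits with an experiment or a library left out, those without experiment 5 and without its quiescent knockdown library (edgeR adjusted p from 0.0277 to 0.248 over the 9).

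Tap1 ranged from 13.2 to 31.0 CPM. In control cells its within-experiment log2 differences with quiescence were -0.37, 0.83 and 0.75 in experiments 5, 7 and 9, and in knockdown cells they were -0.73, 0.80 and 0.72. Tap1 and Tap2 were both higher in quiescence in experiments 7 and 9 with either hairpin, and in experiment 5 Tap1 was lower. The fitted values were 0.42 ± 0.31 in control cells (edgeR adjusted p = 0.363) and 0.25 ± 0.31 in knockdown cells (edgeR adjusted p = 0.610).

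Tapbp, which bridges the transporter and the empty heavy chain, was measured at 168, 78.4 and 53.5 CPM in proliferating control cells and at 240.1, 147 and 199 CPM in quiescent control cells. With the knockdown it was measured at 165, 92.0 and 78.6 CPM in proliferating cells and at 272, 184 and 247 CPM in quiescent cells. It was higher in quiescence in each experiment, and experiment 5 was the highest throughout, so control groups overlapped through the quiescent library of experiment 7. The log2 fold change was 0.97 ± 0.40 in control cells (edgeR adjusted p = 0.108, and 0.0068 with the block) and 1.07 ± 0.40 in knockdown cells (edgeR adjusted p = 0.0854, and 0.0052 with the block).

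Psmb8, Psmb9 and Psmb10 encode the catalytic subunits of the immunoproteasome, which take the places of Psmb5, Psmb6 and Psmb7 in the standard proteasome. Psmb8 was measured at 1.46, 0.519 and 1.31 CPM in proliferating control, 1.92, 0.77 and 2.58 in proliferating knockdown, 1.03, 0.55 and 3.46 in quiescent control and 2.85, 1.13 and 11.1 in quiescent knockdown cells of experiments 5, 7 and 9. The quiescent knockdown library of experiment 9 stood far above the other 11, and otherwise the 4 groups overlapped. Psmb8 had a log2 fold change with quiescence of 1.51 ± 0.85 in knockdown cells (edgeR adjusted p = 0.241, and 0.0432 with the block), and without that library the value was 0.19. Psmb9 ranged from 0.459 to 3.57 CPM, with its highest value in the same library, and its log2 fold change in knockdown cells was 1.22 ± 0.67 (edgeR adjusted p = 0.229). Without experiment 9 that value was 0.076, and without the quiescent knockdown library of experiment 9 alone it was 0.35. Psmb10 ranged from 8.44 to 19.3 CPM and was at -0.24 ± 0.26 in control cells (edgeR adjusted p = 0.557) and 0.33 ± 0.26 in knockdown cells (edgeR adjusted p = 0.410).

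Set against their standard partners per length, the immunoproteasome subunits were a small fraction. Psmb8 made up 0.403 ± 0.215% (SD, n = 3) of Psmb8 and Psmb5 together in proliferating control, 0.700 ± 0.381% in proliferating knockdown, 0.596 ± 0.510% in quiescent control and 1.73 ± 1.95% in quiescent knockdown cells, with 3.97% as the highest single library. Psmb9 made up 0.345 ± 0.159%, 0.386 ± 0.169%, 0.682 ± 0.413% and 1.15 ± 0.979% of Psmb9 and Psmb6 in the same order of groups. Its partner Psmb6 was lower with the knockdown in 3 of 3 experiments in both states, without overlap, at -0.29 in proliferating and -0.47 in quiescent cells (edgeR adjusted p = 0.9999 and 0.128, and 0.948 and 0.0549 with the block), which raises the share. Psmb10 was less unequal, at 7.18 ± 2.03%, 7.44 ± 2.50%, 8.00 ± 1.59% and 10.8 ± 1.28% of Psmb10 and Psmb7. These shares of RNA were taken across genes whose reads may be recovered unequally, and they are no measure of the assembled proteasome. Without division by length the Psmb8 and Psmb9 shares were larger, with means of 0.727% to 3.05% and 0.584% to 1.93% over the 4 groups and a highest library of 6.97% for Psmb8. Psmb5, Psmb6 and Psmb7 themselves passed in no comparison without the block, and with it Psmb7 fell with quiescence in control cells, by 0.42 on the log2 scale (edgeR adjusted p = 0.0274).

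**Figure D3:**
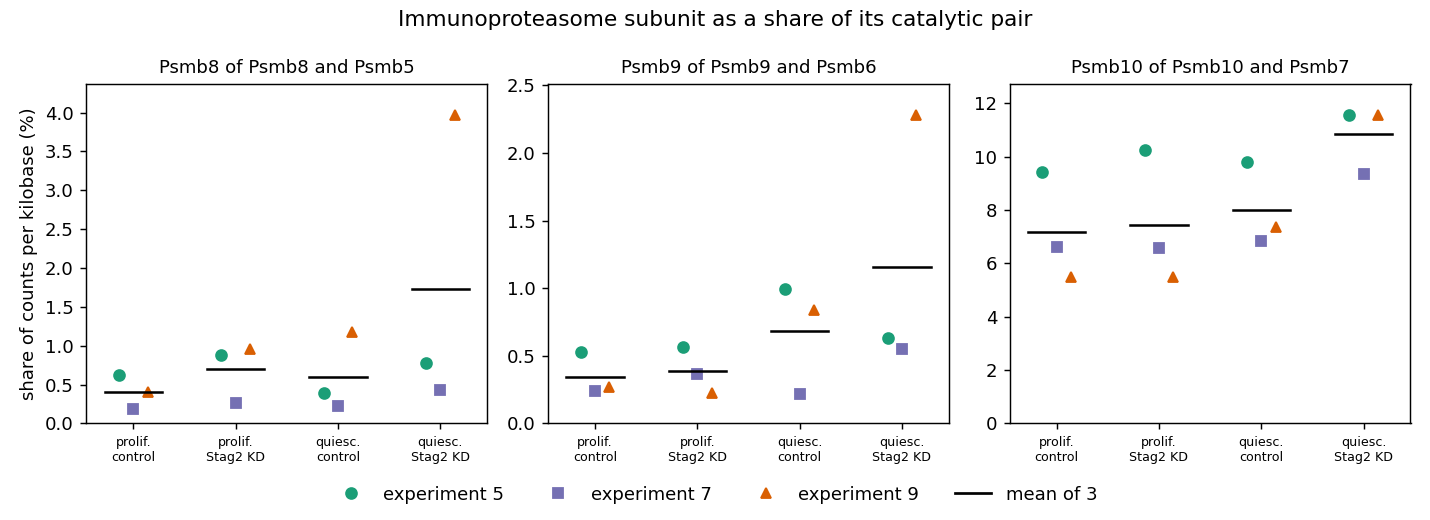
Share (y axis, percent, from 0) of each immunoproteasome subunit in the sum with its standard partner, per exon length, by group (x axis), with points for libraries and lines for the mean of 3. The Psmb8 and Psmb9 shares per length stay at or below 3.97% in all libraries and the Psmb10 share lies between 5.48% and 11.6%.

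Nlrc5, whose protein switches on class I promoters, was close to absent. In experiment 5 the 4 libraries held 3 counts in proliferating control, 0 in proliferating knockdown and 1 in each quiescent group, and in experiment 7 they held 5, 1, 3 and 1. In experiment 9 they held 21 in proliferating control, 11 in proliferating knockdown, 21 in quiescent control and 20 in quiescent knockdown cells. All 4 libraries of experiment 9 thus lay above all 8 of the other experiments, and the library with 0 counts allows up to 0.175 CPM (3 counts, counting error only). Nlrc5 passed in no comparison, and its SE was 1.36 to 2.01 on the log2 scale in the 5 comparisons and 0.53 to 0.80 with the block. For knockdown in proliferating cells it was lower in 3 of 3 experiments, with a blocked edgeR adjusted p of 0.948.

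Within experiments the quiescence difference was uneven. The median over the 10 genes in control cells was 0.02 in experiment 5, 0.20 in experiment 7 and 1.16 in experiment 9, and in knockdown cells it was 0.45, 0.38 and 1.18. Of the 10 genes, 6, 7 and 10 were higher in quiescence in control cells of the respective experiments, and 8, 10 and 10 in knockdown cells. The counts for knockdown cells include Nlrc5 in experiment 5, at 0 against 1 count, and in experiment 7, at 1 count in each library. Psmb10 in experiment 7 is included at a log2 difference of 0.016. Without overlap between groups, 3 of 10 were higher in quiescent control cells (H2-D1, B2m and Tap2), against 17.1% of all genes tested, and 4 of 10 in quiescent knockdown cells (H2-D1, H2-K1, Tap2 and Tapbp), against 18.1%.

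**Figure D4:**
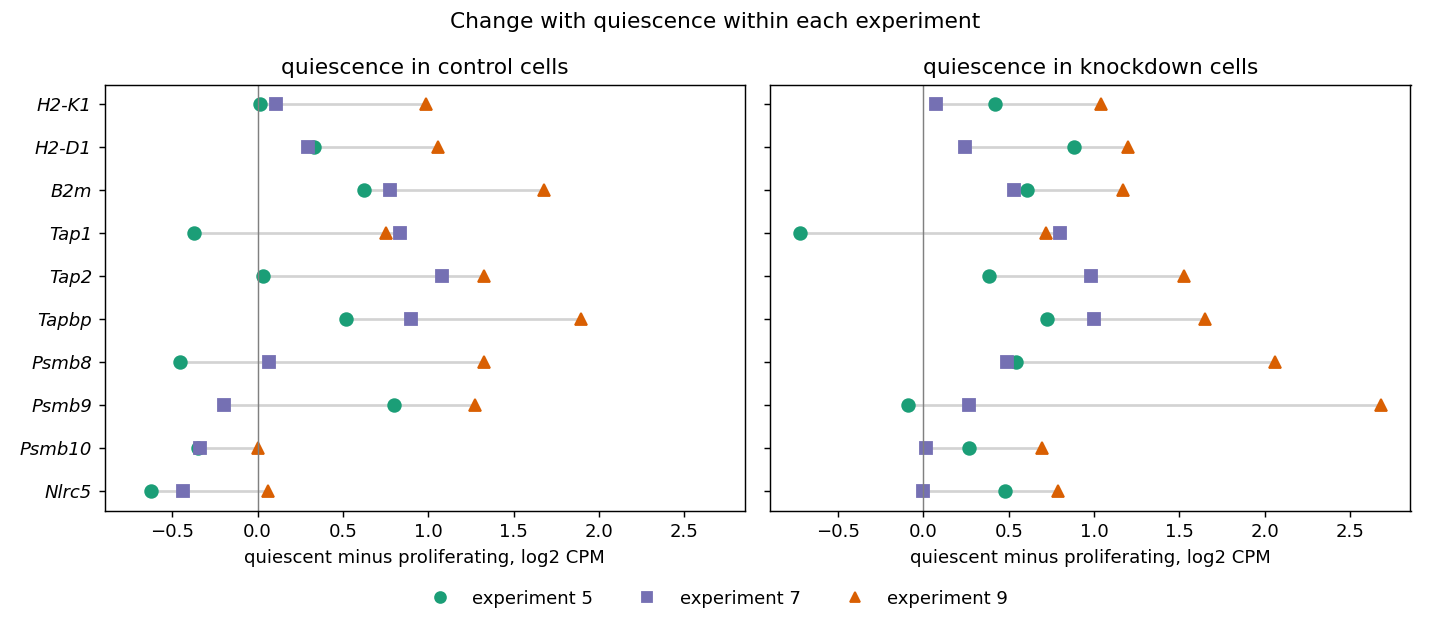
Difference between quiescent and proliferating libraries in log2 CPM (x axis) within each experiment, for each gene (y axis), in control and knockdown cells. Experiment 9 gives the most positive difference for every gene but Tap1 with either hairpin. For Psmb10 and Nlrc5 in control cells it is 0.0047 and 0.064.

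The comparison of knockdown with control cells asked whether Stag2 knockdown changed these genes. In proliferating cells 8 of 10 log2 fold changes were positive with a median of 0.13, against -0.00 over all genes, and they ran from -1.22 ± 1.45 (Nlrc5) to 0.68 ± 0.87 (Psmb8). In edgeR 0 of 10 passed, with adjusted p at 0.9999 for each, against 0.0242% of all genes. The number at an unadjusted p under 0.05 was also 0, as was the number called by DESeq2, beside 228 and 12 of all genes. B2m, H2-D1 and Psmb8 were higher with the knockdown in 3 of 3 experiments, by at most 0.35, 0.49 and 0.92 in log2 CPM, and Nlrc5 was lower in 3 of 3.

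In quiescent cells 7 of 10 were positive with a median of 0.27, against 0.02 over all genes. In edgeR 0 of 10 passed, against 0.435% of all genes, and 0 of 10 passed with the block, against 3.55%. At an unadjusted p under 0.05 the number was 2, H2-D1 and Psmb10, beside 1489 of all 12406 genes, and DESeq2 called 0, beside 387 of all genes. Psmb10 was measured at 11.9, 8.44 and 10.4 CPM in quiescent control cells of experiments 5, 7 and 9 and at 19.3, 11.4 and 15.9 CPM in quiescent knockdown cells. It was higher with the knockdown in 3 of 3 experiments, while the groups overlapped, with a log2 fold change of 0.60 ± 0.26 (edgeR adjusted p = 0.391, and 0.0691 with the block). H2-D1 was also higher in 3 of 3, at 0.51 ± 0.23 (edgeR adjusted p = 0.406, and 0.171 with the block). Psmb8 had the largest value, 1.57 ± 0.85 (edgeR adjusted p = 0.518, and 0.0786 with the block), and was higher in 3 of 3. Without the quiescent knockdown library of experiment 9 it was 0.25, and without the quiescent control library of that experiment it was 2.66. B2m, Tap1 and Nlrc5 were lower with the knockdown in 3 of 3, at -0.10 ± 0.38, -0.14 ± 0.31 and -0.28 ± 1.39, and did not pass. H2-K1 alone had all 3 knockdown libraries above all 3 control libraries, at 0.27 ± 0.24 (edgeR adjusted p = 0.739), and 10.2% of all genes tested did so. Csf1r was also higher with the knockdown in quiescent cells (log2 fold change 1.57 ± 0.40, edgeR adjusted p = 0.128, and 0.0385 with the block), and its part in the values of these genes was not tested.

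Whether the knockdown acted differently in the 2 states was asked of the interaction. In edgeR 0 of 10 genes passed, with adjusted p at 0.9997 for each, and 0% of all 12406 genes did. The number at an unadjusted p under 0.05 was 0, and DESeq2 called 0 of the 10, beside 219 and 6 of all genes. The estimates ran from -0.28 ± 0.54 for B2m to 0.94 ± 2.01 for Nlrc5. The comparisons of quiescence and of knockdown share libraries, so their values for a gene are not independent of each other.

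**Figure D5:**
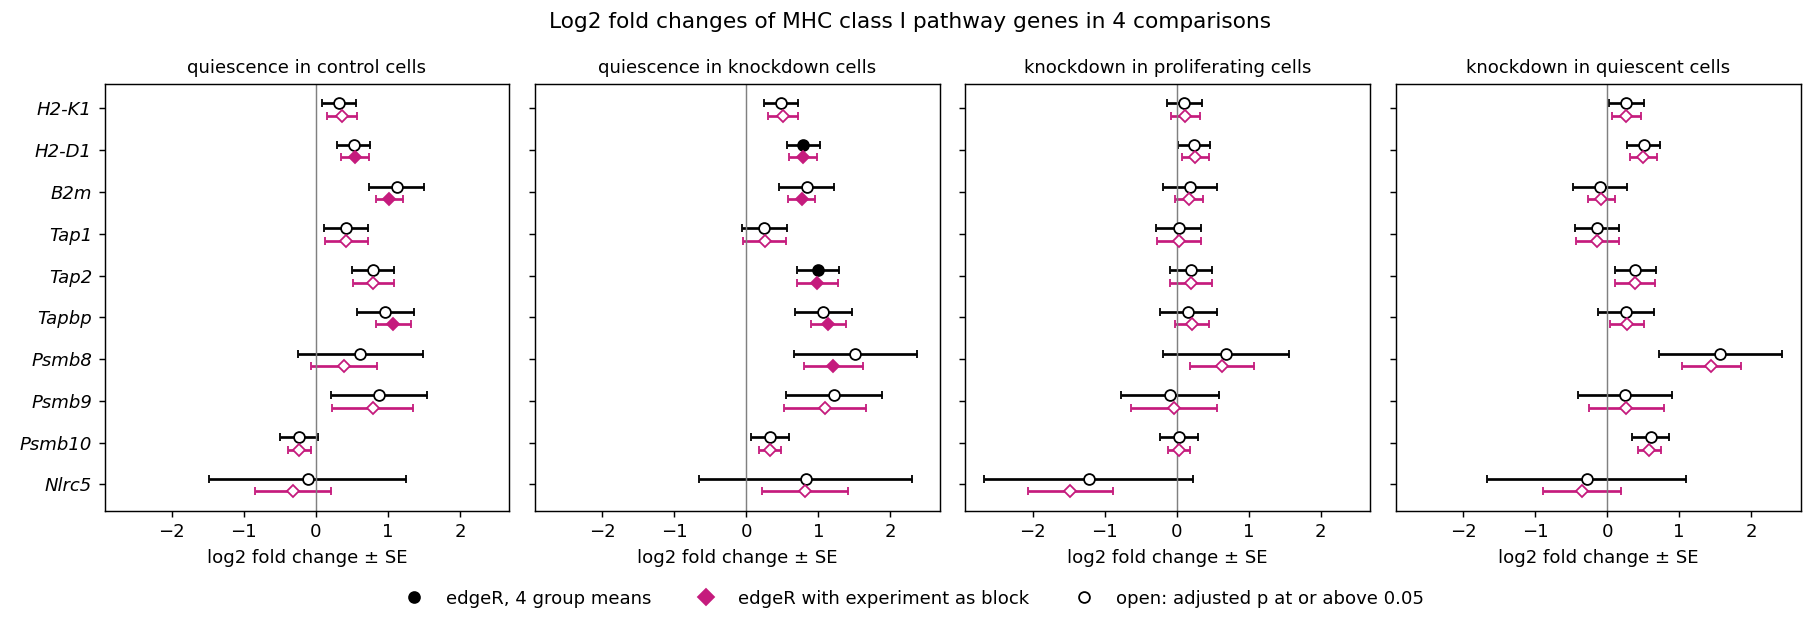
Log2 fold change with its SE (x axis) of each gene (y axis) in 4 comparisons, without (black circles) and with (magenta diamonds) the experiment as a block; filled symbols have an adjusted p under 0.05. Filled symbols occur only for quiescence, for H2-D1, B2m and Tapbp in both kinds of cell and for Tap2 and Psmb8 in knockdown cells.

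Other genes of the pathway were read from lists chosen for this work. Their counts stand beside the shares of all genes tested that passed with quiescence. In control cells these were 8.33% as higher and 11.7% as lower, and 16.8% and 18.5% with the block. In knockdown cells the shares were 7.59% and 10.8%, and 15.9% and 17.2% with the block. Among nonclassical and Q, T and M region class I genes, 8 of 20 listed could be tested, and 1 rose with quiescence in control cells and 2 in knockdown cells. Mr1, which presents vitamin B metabolites, rose in both (log2 fold change 1.65 in control and 1.70 in knockdown cells, edgeR adjusted p = 0.00567 and 0.00523). H2-M3, which presents formylated peptides and shares the X2 and Y spacing, rose in knockdown cells by 0.93 (edgeR adjusted p = 0.0222). In control cells its log2 fold change was 0.62, higher in 3 of 3 experiments (edgeR adjusted p = 0.0971, and 0.0256 with the block). Among the 27 genes with the X2 and Y spacing, not all of which could be tested, Nfe2l1 passed as higher with quiescence in both kinds of cell. Calu, Hnrnpf, Hspa14, Nasp and Nrarp passed as lower in both. Over all genes, the shares in either kind of cell alone were 7.59% to 8.33% as higher and 10.8% to 11.7% as lower. Whether the spacing bears on these changes was not tested. Of 8 peptide loading and trimming genes, 0 passed with quiescence in edgeR, and with the block Calr and Erap1, a chaperone and a peptidase, rose in knockdown cells. Of 6 standard proteasome and activator genes, 0 passed, and with the block Psme3 and Psmb7 fell in control cells.

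Among 15 genes for transcription of class I genes, Rela, an NF-kappa B subunit, rose with quiescence in control cells by 0.42 (edgeR adjusted p = 0.0148). Nfyb, a subunit of the factor that binds the Y motif, fell by 0.87 in control cells (edgeR adjusted p = 0.00524) and by 0.91 in knockdown cells (edgeR adjusted p = 0.00466). Atf1, of a family that binds motifs like X2, fell by 0.76 in control cells (edgeR adjusted p = 0.0264). With the block, Stat2 and Irf9, which carry the interferon signal to DNA, rose in control cells, and Rela rose in knockdown cells. Of 7 interferon receptor and kinase genes, Ifngr2, a chain of the interferon gamma receptor, rose with quiescence by 0.93 in control and 0.86 in knockdown cells (edgeR adjusted p = 0.00362 and 0.00583). With the block Ifnar1 rose too, in both, and Jak2 fell in knockdown cells.

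Of 5 tested ligands read by lymphocytes, Ulbp1, which engages the receptor NKG2D of natural killer cells, fell with quiescence (log2 fold change -2.62 in control and -2.79 in knockdown cells, edgeR adjusted p = 0.00203 and 0.00182). Of 7 MHC class II genes only H2-DMb1 could be tested, and it did not pass. For the 2 comparisons of knockdown and the interaction, 0 genes of these 7 lists passed in edgeR, with or without the block.

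Across the 12 libraries, H2-D1 followed H2-K1 (Pearson r = 0.92) and Tapbp (r = 0.91) most closely, while Nlrc5 was at -0.41 with H2-K1. These are descriptions over libraries that share 3 experiments, and H2-D1 and H2-K1 also share sequence. Measured against the mean standardised log2 CPM of the 10 genes, B2m (r = 0.88) and Tap2 (r = 0.88) lay closest and Nlrc5 (r = 0.15) farthest. Each of the 10 is part of that mean, which raises its own r, so these values cannot be set against those of other genes. Among all other tested genes, Insl6 (r = 0.96), Tlr1 (r = 0.95), Mfsd9 (r = 0.94), Dbp (r = 0.94) and Parp12 (r = 0.94) followed this mean most closely over the 12 libraries. Tlr1 did so at 0 to 1.17 CPM, where few reads set each value.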

How the data were processed

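RNA sequencing libraries were made from polyadenylated RNA of NU1 cells with a stranded kit, per the labels' protocols. The authors deposited raw counts per gene symbol, with no normalization, for 12 libraries of 23337 symbols. Bowtie, TopHat, HTSeq and DESeq2 are named, with the build mm10, in the submitters' processing notes. The annotation and the strand setting of the counting are not given in the sources used here. The table as used held 0 rows of ERCC spike-in sequences.

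The 10 members and all other lists were chosen with earlier results of these data known. Genes were filtered with filterByExpr (minimum count 10), which left 12406, and tested with edgeR 4.0.16 (limma 3.58.1, R 4.3.3): TMM scaling, quasi-likelihood fit over 4 group means and all 12 libraries, and Benjamini-Hochberg adjusted p-values over all genes tested, with a threshold of 0.05. An SE is the absolute log2 fold change over the square root of the F statistic. CPM used TMM-scaled totals, and differences within an experiment used log2 CPM with a prior count of 2. Lengths are the union of exons of protein-coding GENCODE M21 transcripts, and promoters are from RefSeq (GRCm38.p6). The code was tested on simulated data.

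The experiment number pairs libraries: deviations from the group means had a mean correlation of 0.526 between libraries of the same experiment (0.225 to 0.789 over 18 pairs) and -0.259 between different ones (36 pairs). Replicates differed by more than sampling noise in each of 12 pairs. Alternatives were the replicate block, DESeq2 1.42.0, other size factors, other filters, only the libraries of a comparison, each library or experiment left out, and a block over experiments 5 and 7 alone, which was chosen after seeing the data. All 10 members were named in each comparison. Of the other lists, genes that passed were named (at most 4 a list, and some are not reported here), with the 5 genes most like the members' mean. Floors of 3 counts were 0.136 to 0.207 CPM.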

Additional observations from a re-analysis of the deposited data

Results flagged for a closer look

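B2m went in opposite directions with Stag2 knockdown in the 2 states. In proliferating cells it was higher with the knockdown in experiments 5, 7 and 9, by 0.01, 0.20 and 0.35 in log2 CPM. In quiescent cells it was lower in the same experiments, by -0.01, -0.05 and -0.16. The difference between the states, quiescent minus proliferating, was -0.28 ± 0.54 (SE) on the log2 scale with an edgeR adjusted p of 0.9997, so it did not pass the test.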

How the results depend on the processing

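Counts of genes depended on the model. With the replicate block the number of all genes called was 440 for knockdown in quiescent cells (54 without it), 4373 for quiescence in control cells (2481) and 4096 in knockdown cells (2279). The number of members called for quiescence became 3 in control and 5 in knockdown cells, and the block changed no other member's call. DESeq2 called 12 genes for knockdown in proliferating cells (3 in edgeR), 387 in quiescent cells and 6 for the interaction (0 in edgeR). For quiescence it called 3 members in control cells (0 in edgeR) and 3 in knockdown cells (2 in edgeR). With only the libraries of a comparison, 1 gene was called for knockdown in proliferating cells and 1540 for quiescence in control cells. With the block over experiments 5 and 7 alone, 0 and 12 genes were called for knockdown in proliferating and quiescent cells, and 2 members, B2m and Tapbp, for quiescence in control cells and the same 2 in knockdown cells, where H2-D1, Tap2 and Psmb8 lost their blocked calls. There, Psmb9 turned to 0.19 and -0.21 for knockdown in proliferating and quiescent cells and to -0.40 for the interaction, and Psmb8 to -0.25 for quiescence in control cells. The causes were not tested.

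Leaving out 1 experiment or 1 library gave 0 to 2 genes for knockdown in proliferating cells, 1 to 60 in quiescent cells, 602 to 3104 for quiescence in control and 703 to 2039 in knockdown cells, from fewer samples. It gave 0 to 3 members for quiescence in control cells: Tap2 and Tapbp without experiment 5, these and H2-D1 without its proliferating control library, and B2m without the quiescent control library of experiment 7. It gave 0 to 2 members in knockdown cells, where Tapbp passed without experiment 5 or its proliferating knockdown library.

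Leaving out libraries turned the sign of values that had not passed. For knockdown in proliferating cells, log2 fold changes then ran from -0.46 to 0.22 for Psmb9, -0.28 to 0.21 for Tap1, -0.20 to 0.24 for Psmb10, -0.12 to 0.33 for H2-K1, -0.23 to 0.76 for Tapbp and -3.93 to 0.023 for Nlrc5. For knockdown in quiescent cells they ran from -0.61 to 0.81 for Psmb9, -3.13 to 1.64 for Nlrc5, -0.34 to 0.094 for Tap1 and -0.51 to 0.39 for B2m. For quiescence they ran from -0.47 to 1.13 for Psmb8 and -2.04 to 1.13 for Nlrc5 in control cells, and from -0.0021 to 0.76 for Tap1 and -2.02 to 3.54 for Nlrc5 in knockdown cells. For the interaction they ran from -0.50 to 0.49 for Tapbp, -0.53 to 0.96 for Psmb9, -0.37 to 0.14 for Tap1, -0.058 to 0.39 for H2-K1, -1.91 to 3.64 for Nlrc5, -0.12 to 0.37 for Tap2, -0.69 to 0.20 for B2m and -0.43 to 1.98 for Psmb8. For quiescence no setting turned the sign of H2-D1, H2-K1, B2m, Tap2, Tapbp, Psmb9 or Psmb10. Depth limits Nlrc5, at 0 to 21 counts a library, and Psmb8 and Psmb9, whose lowest libraries held 9 and 8 counts. Not dividing by length raised all 12 mean immunoproteasome shares, 5 of them by more than 1 SD. Psmb8 in proliferating control cells, from 0.403% to 0.727%, was 1 of these 5. In quiescent knockdown cells Psmb8 went from 1.73% to 3.05%, by less than its SD of 1.95%.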
